A study of Mus musculus with 12 samples.

Results

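The genes examined here are 33 genes of glycolysis, glucose and lactate transport and the hypoxia pathway, found by symbol among the 50559 genes of the count table. Their transcripts were counted in macrophages differentiated from the bone marrow of C57BL/6 mice. Cells had been given house dust mite (HDM) allergen, an extract used to provoke airway allergy, or vehicle for 1 h, with 6 libraries per treatment numbered 1 to 6. No genetic change is named for either group, and the sources used here state no dose, age or vehicle composition. Nor do they say whether the numbered libraries are separate animals, separate cultures or repeats of one culture. The p-values therefore measure the spread between these libraries, which may be technical.

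Glycolysis splits glucose into pyruvate in the cytosol. Transporters bring glucose in, hexokinase traps it, phosphofructokinase commits it, and lactate dehydrogenase with monocarboxylate carriers disposes of the product. The transcription factor HIF raises many of these genes when oxygen is low: EGLN enzymes hydroxylate its alpha subunit, VHL marks the hydroxylated protein for destruction, and without oxygen both steps stop. Macrophages that sense microbial products also turn to glycolysis, and HIF1A protein can then accumulate in normal oxygen.

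Counted reads ran from 19.69 M to 119.71 M per library. The 10 macrophage markers were all detected and summed to between 17072 and 21771 CPM (counts per 1 M counted reads). Marker lists of neutrophils, dendritic cells, lymphocytes, mast cells with basophils, stroma and erythroid cells summed to at most 6.90 CPM each in any library. Stroma markers summed to 2.11 to 5.22 CPM with HDM and to 3.44 to 6.90 CPM with vehicle. In the fit with the library number as a block, 2 of the 4 tested stroma markers, the collagen genes Col1a1 (0.449 CPM after HDM, 1.11 with vehicle, adjusted p = 0.00141 in edgeR) and Col1a2 (0.467 and 0.931 CPM, adjusted p = 0.0485), were lower with HDM. Without the block neither passed. Their part in the member changes of that fit was not tested. In these bulk samples fewer cells of a type and less RNA per cell cannot be told apart. Libraries numbered 5 and 6, of both treatments, stood apart from the other 8 in many genes, and values of the members that moved are given with and without them.

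Transcripts of most of the genes stayed near their vehicle level after 1 h, and those of a few moved. Below, "called" means an adjusted p under 0.05 in edgeR's quasi-likelihood test, with the Benjamini-Hochberg adjustment made over all 13530 tested genes. All 33 members passed the filter on low counts. With treatment as the only term, 1 member rose (Hk2) and 3 fell (Slc16a1, Pfkfb3 and Vhl), or 3.0% and 9.1% of the members. Over all tested genes 2.9% were called higher and 2.47% lower. The library number was then added as a block, though the labels do not say that same-numbered libraries belong together. Their deviations from the group means correlated at 0.367 to 0.672, highest for numbers 5 and 6. The split of numbers 5 and 6 from the rest stays in the deviations of both groups. These correlations therefore cannot show that same-numbered libraries belong together. Only 5 of 12 libraries matched their own number best. With the block Slc2a1, Slc16a3, Pfkm and Vegfa rose as well. That made 5 rises and 3 falls, 15.2% and 9.1% of the members, where 7.9% and 6.81% of all tested genes were called. The median log2 fold change of the 33 members was 0.01 and that of all tested genes -0.00, so the list as a whole lay with the rest. With so few members called, these shares rest on single genes.

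**Figure D1:**
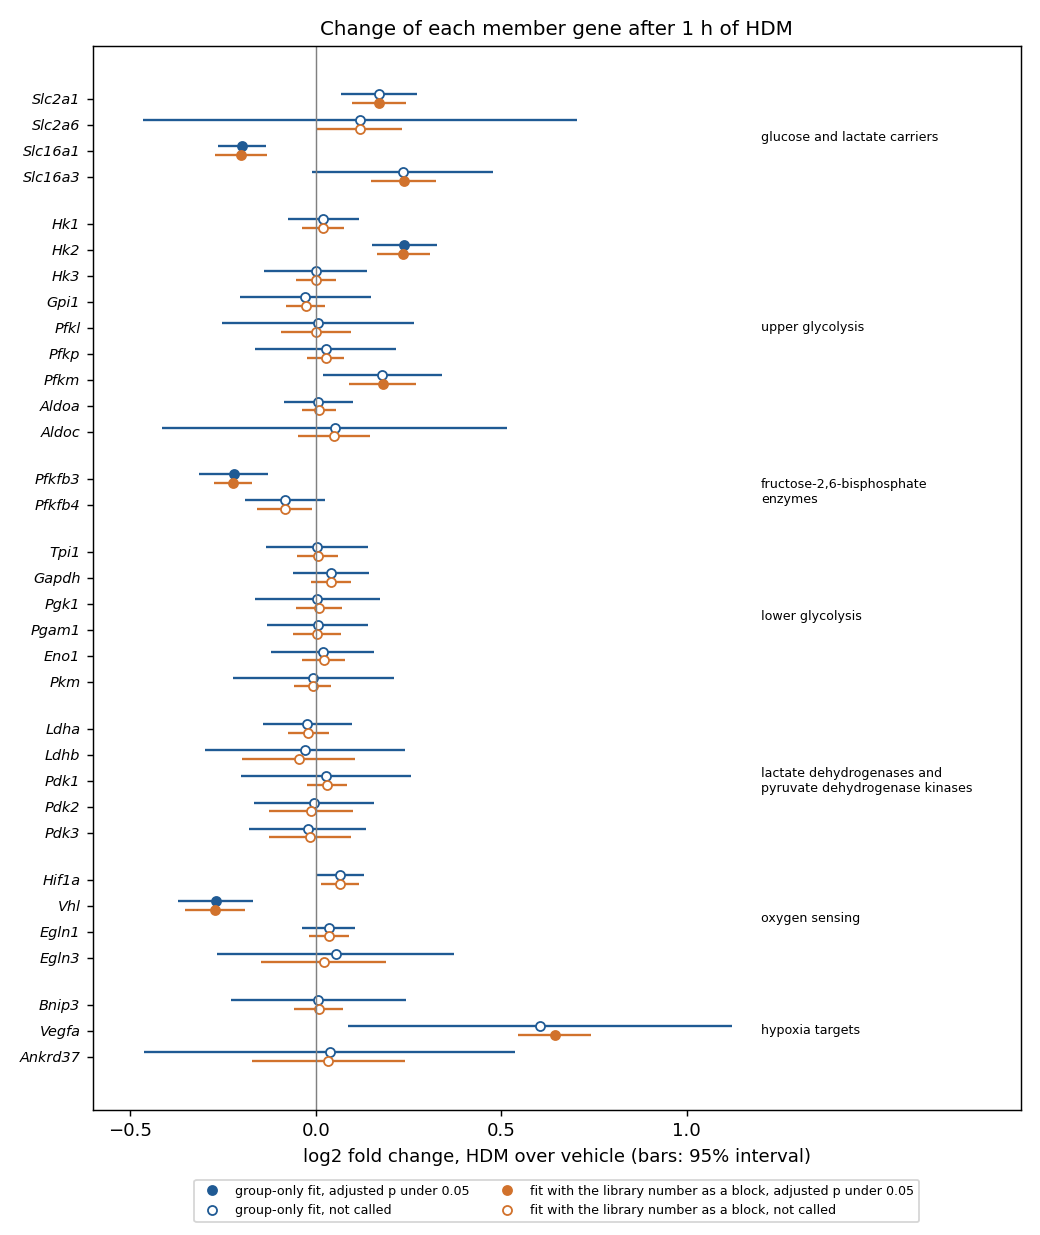
Change of each of the 33 genes with HDM, as log2 fold change over vehicle with its 95% interval, grouped by role (6 libraries per treatment). Blue points are the fit on treatment alone and orange points the fit with the library number as a block. Filled points passed an adjusted p of 0.05. Vegfa lies farthest to the right, Hk2 is the only filled blue point above 0, and the enzymes of lower glycolysis sit at 0.

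Hk2 encodes the inducible hexokinase, which phosphorylates glucose at the outer membrane of mitochondria. With HDM its level ran from 66.2 to 74.2 CPM with a median of 71.8, and with vehicle from 56.5 to 64.7 CPM with a median of 59.3. The groups did not overlap, so the HDM library was necessarily the higher one in 6 of 6 numbers. The log2 fold change was 0.24 ± 0.04 SE (adjusted p = 0.00313 in edgeR, 8.18e-05 with the block), a rise of 18.0%. Groups that do not overlap were seen in 2.32% of all tested genes with HDM higher and in 2.07% with HDM lower. Among the members, Hk2 was the only such gene on the higher side, and Slc16a1, Pfkfb3 and Vhl were the 3 on the lower side.

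The other hexokinases differed by less than the spread between libraries. Hk1, the housekeeping form, averaged 164 ± 8.80 CPM after HDM and 162 ± 8.61 CPM in vehicle libraries (errors are SD, n = 6 per group, here and for every mean; log2 fold change 0.02, 95% interval -0.07 to 0.12). Hk3, a form abundant in myeloid cells, averaged 396 ± 29.3 and 396 ± 36.5 CPM (log2 fold change -0.00, interval -0.14 to 0.14). Per kilobase of exon the order in vehicle cells was Hk3 at 118 CPM per kb, Hk1 at 33.3 and Hk2 at 10.7. The ranges over libraries did not overlap (110 to 132, 30.4 to 35.3 and 10.1 to 11.5 CPM per kb). The hexokinase that rose was thus the least abundant of these 3 on the per-length scale, before and after HDM (12.7 CPM per kb for Hk2 with HDM).

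Phosphofructokinase was measured through its 3 subunit genes, named for liver (Pfkl), platelet (Pfkp) and muscle (Pfkm). Pfkm, the least abundant per length (4.60 CPM per kb with vehicle, against 49.4 for Pfkp and 24.7 for Pfkl), ran from 13.5 to 16.7 CPM with HDM (median 16.3) and from 11.96 to 15.8 with vehicle (median 13.7). The groups overlapped, yet within each of the 6 numbers HDM was higher, by a ratio of 1.05 to 1.22. Its log2 fold change was 0.18 ± 0.07 SE with treatment alone (adjusted p = 0.266) and 0.18 ± 0.04 with the block (adjusted p = 0.00714). Pfkl and Pfkp were at 0.01 and 0.03, with intervals from -0.25 to 0.26 and from -0.16 to 0.22. In the GENCODE annotation exons of Pfkm overlap Senp1 on the other strand, those of Pfkp overlap Pitrm1 and those of Hk3 overlap Unc5a. Whether the counting used strand is unknown here, so reads of these partners cannot be told apart in the overlaps. Other members overlap genes too. Pkm overlaps Gm49759 (334 bases) and Hif1a overlaps Gm49321 (148 bases) on the same strand, where strand would not separate the reads.

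Pfkfb3 and Pfkfb4 encode bifunctional enzymes that make and remove fructose 2,6-bisphosphate, the strongest activator of phosphofructokinase, and PFKFB3 mainly makes it. Pfkfb3 fell. It ran from 90.2 to 105 CPM with HDM (median 100.3) and from 107 to 122 with vehicle (median 114). Without overlap, HDM was necessarily lower in 6 of 6 numbers. The log2 fold change was -0.22 ± 0.04 SE (adjusted p = 0.00773, and 3.74e-06 with the block), or -14.2%. Pfkfb4 averaged 27.1 ± 1.81 CPM after HDM and 28.7 ± 1.37 CPM in vehicle libraries, a log2 fold change of -0.08 ± 0.05 SE that was not called (adjusted p = 0.579, and 0.139 with the block).

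None of the remaining enzymes of glycolysis was called. Per kilobase of exon Gapdh (1054 CPM per kb with vehicle), Pkm (954) and Aldoa (947) were the highest of the 33 genes, and Aldoc was low at 7.23 CPM per kb (22.4 ± 6.36 CPM after HDM, 21.5 ± 6.34 with vehicle). Aldoa, the main aldolase, averaged 1735 ± 69.2 CPM after HDM against 1727 ± 91.6 CPM. Gapdh averaged 1622 ± 71.5 and 1576 ± 100.2 CPM, and Pkm, pyruvate kinase, 2468 ± 326 and 2479 ± 307 CPM. On treatment alone, the 95% interval of the log2 fold change was -0.09 to 0.10 for Aldoa. It was -0.06 to 0.14 for Gapdh and -0.22 to 0.21 for Pkm. With the block the intervals were -0.04 to 0.05, -0.01 to 0.10 and -0.06 to 0.04 in the same order. Gpi1, Aldoc, Tpi1, Pgk1, Pgam1 and Eno1, the enzymes of the steps between, lay from -0.03 (Gpi1) to 0.05 (Aldoc) on the log2 scale. The 15 enzyme genes from hexokinase to pyruvate kinase together took 9391 ± 576 CPM with HDM and 9325 ± 650 with vehicle. Several of these genes, Gapdh among them, have near-identical pseudogenes in the mouse genome that can share reads, so their levels are uncertain to that extent.

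Pyruvate can leave as lactate or enter mitochondria. Ldha, the gene of the lactate dehydrogenase subunit that favours lactate, averaged 1013 ± 49.3 CPM after HDM against 1029 ± 85.9 CPM (log2 fold change -0.02, interval -0.14 to 0.10). Ldhb, the subunit of oxidative tissue, averaged 5.31 ± 0.951 and 5.44 ± 0.733 CPM. The pyruvate dehydrogenase kinases Pdk1, Pdk2 and Pdk3, which shut the entry to mitochondria, had log2 fold changes of 0.03, -0.00 and -0.02, and none was called in either fit. Per length in vehicle cells Pdk1 was the most abundant of them (15.4 CPM per kb), then Pdk3 (6.45) and Pdk2 (4.10), with ranges that did not overlap.

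The carriers moved in different directions. Slc16a1 and Slc16a3 encode the monocarboxylate carriers MCT1 and MCT4; MCT4 is the low-affinity form of cells that export much lactate. Slc16a1 fell: it ran from 26.8 to 27.9 CPM with HDM (median 27.0) and from 30.1 to 32.7 with vehicle (median 31.1). As the groups did not overlap, Slc16a1 was necessarily lower with HDM in 6 of 6 numbers. Its log2 fold change was -0.20 ± 0.03 SE (adjusted p = 0.00114, and 0.000298 with the block), or -12.9%.

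Slc16a3 ran from 51.4 to 65.9 CPM with HDM (median 57.3) and from 36.8 to 60.2 with vehicle (median 50.2). Here the groups overlapped, but the HDM library of each number was the higher one, by a ratio of 1.07 to 1.42. The log2 fold change was 0.23 ± 0.11 SE on treatment alone (adjusted p = 0.388) and 0.24 ± 0.04 with the block (adjusted p = 0.000666). On the per-length scale Slc16a3 was the more abundant of the pair with vehicle, at 11.1 CPM per kb (8.27 to 13.5 over libraries) against 7.03 for Slc16a1 (6.81 to 7.38).

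Slc2a1 encodes the glucose transporter GLUT1. It ran from 104.8 to 115.5 CPM with HDM (median 111.8) and from 87.4 to 107.5 with vehicle (median 98.8), and was higher with HDM in 6 of 6 numbers, by a ratio of 1.04 to 1.28. The highest vehicle library lay above the lowest HDM libraries, so the groups overlapped. Its log2 fold change was 0.17 ± 0.05 SE (adjusted p = 0.0549), and 0.17 ± 0.03 with the block (adjusted p = 0.00194), where it passed. An exon of the predicted gene Gm12868 overlaps Slc2a1 on the other strand. Slc2a6, a lysosomal hexose transporter of myeloid cells, averaged 9.30 ± 3.33 CPM after HDM against 8.68 ± 3.34 CPM (log2 fold change 0.12, interval -0.46 to 0.70) and was not called in either fit (adjusted p = 0.173 with the block).

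**Figure D2:**
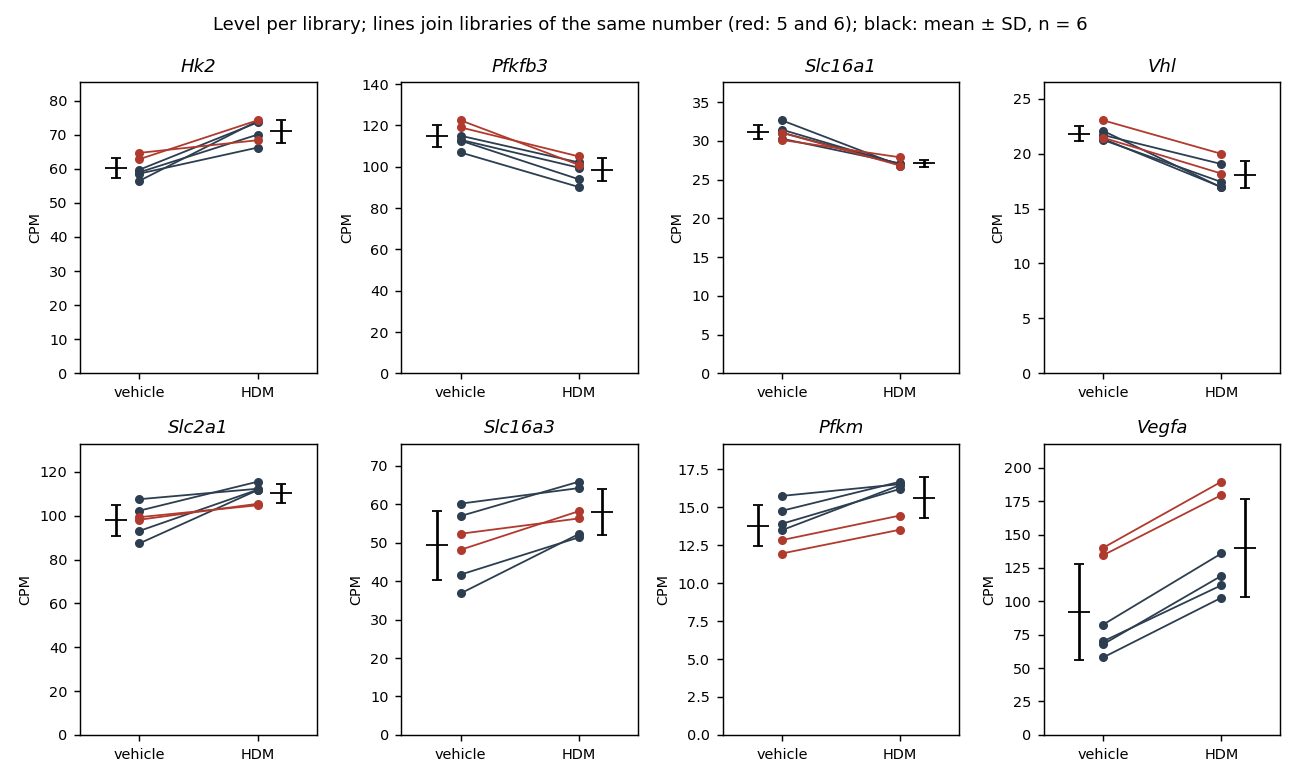
Level in CPM (linear axis from 0) of the 8 members called in at least one fit, with a line joining the vehicle and HDM library of each number; numbers 5 and 6 are red and the black marks are mean ± SD of 6 libraries. All lines rise for Hk2, Slc2a1, Slc16a3, Pfkm and Vegfa and all fall for Pfkfb3, Slc16a1 and Vhl, and the red lines of Vegfa start at 134 and 140.0 CPM, above the other 4 vehicle libraries.

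Of the oxygen-sensing genes only Vhl was called. It ran from 16.9 to 20.0 CPM with HDM (median 17.8) and from 21.2 to 23.0 with vehicle (median 21.6). The ranges did not overlap, so the HDM library was necessarily lower in 6 of 6 numbers. The log2 fold change was -0.27 ± 0.05 SE (adjusted p = 0.00360, and 7.03e-05 with the block), or -17.1%, the largest fall among the 33 genes. Hif1a, the gene of the oxygen-regulated alpha subunit, averaged 143 ± 5.45 CPM after HDM against 137 ± 2.38 CPM. It was higher with HDM in 6 of 6 numbers, at a log2 fold change of 0.07 ± 0.03 SE, and missed the threshold in both fits (adjusted p = 0.323, and 0.0766 with the block). The interval of 0.02 to 0.12 with the block bounds the size of any change in its transcript. Egln1, the main oxygen-sensing hydroxylase, averaged 59.9 ± 1.57 and 58.5 ± 2.57 CPM, and Egln3, itself a hypoxia-induced gene, 4.32 ± 0.834 and 4.17 ± 0.719 CPM. Their log2 fold changes were 0.04 and 0.05, and neither was called in either fit.

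Vegfa encodes the main growth factor of blood vessels and is a classical target of HIF. It had the largest fold change of the 33 genes and also a large spread between libraries. With HDM it ran from 102.7 to 189 CPM (median 127) and with vehicle from 57.9 to 140.0 CPM (median 76.3). Numbers 5 and 6 were the highest of both groups, at 134 and 140.0 CPM with vehicle and 179 and 189 with HDM. The other 4 numbers lay between 57.9 and 82.5 CPM with vehicle and between 102.7 and 136 with HDM, with no overlap. Within each number HDM was higher, by a ratio of 1.34 to 1.77. On treatment alone the log2 fold change was 0.61 ± 0.24 SE and did not pass (adjusted p = 0.233), and with the block it was 0.64 ± 0.05 and did (adjusted p = 2.14e-08). In numbers 1 to 4 alone it was 0.75 (adjusted p = 0.000277) and in numbers 5 and 6 alone 0.43 (adjusted p = 2.36e-12), the latter from 2 libraries against 2.

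Bnip3, a mitophagy gene, and Ankrd37, an ankyrin repeat gene, are HIF targets as well. Bnip3 averaged 32.9 ± 4.77 CPM after HDM against 32.6 ± 4.71 CPM (log2 fold change 0.01, interval with the block -0.06 to 0.07). Ankrd37 was low, averaging 2.67 ± 0.818 and 2.58 ± 0.746 CPM (log2 fold change 0.04, interval with the block -0.17 to 0.24). Neither was called in either fit, and with the block both intervals lie below that of Vegfa (0.55 to 0.74). On treatment alone the intervals were -0.23 to 0.24 for Bnip3, -0.46 to 0.54 for Ankrd37 and 0.09 to 1.12 for Vegfa, and overlapped. The difference between the genes was not tested.

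For the other called members the change was also computed within the library numbers. In numbers 1 to 4 alone the log2 fold changes were 0.28 for Hk2, -0.22 for Pfkfb3, -0.22 for Slc16a1 and -0.29 for Vhl, all called (adjusted p = 0.000543, 0.00471, 0.00290 and 0.00184). In numbers 5 and 6 alone they were 0.16, -0.23, -0.16 and -0.23, and Slc16a1 was not called there (adjusted p = 0.113). Slc2a1 was at 0.21 in numbers 1 to 4 (adjusted p = 0.0322) and at 0.09 in numbers 5 and 6 (adjusted p = 0.159). Slc16a3 was at 0.26 and 0.18 (adjusted p = 0.346 and 0.0124), and Pfkm at 0.19 in both (adjusted p = 0.0604 and 0.180). Whether these changes differ between the library numbers was not tested. When each number was left out in turn from the fit with the block, all 8 members were called every time, with adjusted p of at most 0.0280 (Pfkm).

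The promoters of 7 of these 8 genes are shown because they moved in a pathway whose known regulator, HIF, binds a short core sequence. Each is the stretch of 250 bases before an annotated start in the RefSeq table for GRCm38.p6, written 5' to 3' on the gene's strand. Capitals mark the core of the hypoxia response element, ACGTG or GCGTG, on either strand, and CACGTG (the E-box) holds it on both strands. For Pfkfb3 and Vegfa, with 2 listed starts each, the more upstream one is shown. Pfkm, with 4, is left out.
Hk2, chr6:82774455-82774704, minus strand: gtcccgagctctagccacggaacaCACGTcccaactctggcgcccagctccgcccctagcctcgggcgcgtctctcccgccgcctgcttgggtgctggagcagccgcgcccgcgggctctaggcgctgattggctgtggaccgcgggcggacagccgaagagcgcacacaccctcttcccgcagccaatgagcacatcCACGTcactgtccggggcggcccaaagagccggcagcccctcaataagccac
Slc2a1, chr4:119108495-119108744, plus strand: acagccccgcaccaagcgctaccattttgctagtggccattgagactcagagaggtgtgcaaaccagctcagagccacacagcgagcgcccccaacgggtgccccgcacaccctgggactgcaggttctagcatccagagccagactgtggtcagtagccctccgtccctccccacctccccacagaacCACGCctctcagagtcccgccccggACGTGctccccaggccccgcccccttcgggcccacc
Slc16a3, chr11:120948817-120949066, plus strand: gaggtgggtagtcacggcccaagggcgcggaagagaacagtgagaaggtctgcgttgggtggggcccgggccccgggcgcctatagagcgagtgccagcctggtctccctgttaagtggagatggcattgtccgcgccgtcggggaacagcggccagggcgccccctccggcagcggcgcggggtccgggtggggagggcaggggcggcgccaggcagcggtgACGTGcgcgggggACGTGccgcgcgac
Slc16a1, chr3:104638414-104638663, plus strand: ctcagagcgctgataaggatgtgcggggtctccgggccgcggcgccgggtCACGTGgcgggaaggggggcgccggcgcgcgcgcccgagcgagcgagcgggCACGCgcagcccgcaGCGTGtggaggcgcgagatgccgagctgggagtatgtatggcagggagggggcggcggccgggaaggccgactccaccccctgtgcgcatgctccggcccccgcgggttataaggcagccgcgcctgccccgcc
Pfkfb3, chr2:11553930-11554179, minus strand: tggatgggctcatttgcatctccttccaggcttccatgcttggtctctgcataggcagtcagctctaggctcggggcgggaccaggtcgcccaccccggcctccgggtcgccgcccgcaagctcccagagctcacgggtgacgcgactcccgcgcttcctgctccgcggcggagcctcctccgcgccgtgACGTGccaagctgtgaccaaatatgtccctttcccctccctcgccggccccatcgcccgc
Vhl, chr6:113623744-113623993, plus strand: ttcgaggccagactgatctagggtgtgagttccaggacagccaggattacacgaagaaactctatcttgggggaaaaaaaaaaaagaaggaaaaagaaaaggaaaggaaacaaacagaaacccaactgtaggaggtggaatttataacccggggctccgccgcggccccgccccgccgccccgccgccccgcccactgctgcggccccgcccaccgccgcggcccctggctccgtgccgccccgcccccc
Vegfa, chr17:46032378-46032627, minus strand: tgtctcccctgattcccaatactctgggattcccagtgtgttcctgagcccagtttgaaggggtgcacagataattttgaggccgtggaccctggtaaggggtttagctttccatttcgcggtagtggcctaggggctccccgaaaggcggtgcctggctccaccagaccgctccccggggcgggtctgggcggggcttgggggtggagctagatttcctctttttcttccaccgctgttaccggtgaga

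The core occurred in the stretches of Hk2, Slc2a1, Slc16a3, Slc16a1 and Pfkfb3, and not in the windows shown for Vhl and Vegfa. The other listed start of Vegfa (chr17:46025164-46025413) has 2 cores in its window, and that of Pfkfb3 (chr2:11502091-11502340) has 3. The end of the listed sequence at that Vegfa start was not found near the beginning of any GENCODE Vegfa transcript. For the Vegfa start shown above it was. The core is short and common. All 33 members were in the table, with 48 promoters, of which 79.2% held the core, against 54.4% of the 13239 promoters of tested genes and 38.6% of all 32851. By gene, 30 of 33 members (90.9%) and 60.4% of the 10370 tested genes with a listed promoter held it at 1 start or more. For Vegfa that was only the start at chr17:46025164-46025413. The list was assembled around hypoxia and glycolysis, its promoters were richer in G and C (median 61.8% against 59.2% for tested genes), and members that did not move held the core too. The form GGNNTTTCC of the NF-kB site was in 0 of the 48 promoters and in 5.4% of those of tested genes. TGACGTCA, the cAMP response element, was in 1 of the 48, in Ldha, and in 2.5% of those of tested genes. A match describes letters in this window, not binding.

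Apart from HDM, the genes differed widely in how steady they were between libraries. The coefficient of variation over the 6 vehicle libraries was 1.7% for Hif1a, 2.9% for Slc16a1 and 3.1% for Vhl. It was 38.9% for Vegfa, 38.5% for Slc2a6, 29.5% for Aldoc and 28.9% for Ankrd37. In part the larger spread followed the library number. In 10 members numbers 5 and 6 lay below all 8 other libraries, whatever the treatment: Gpi1, Pfkl, Aldoc, Tpi1, Pgk1, Eno1, Pkm, Pdk1, Bnip3 and Ankrd37. In 7 they lay above: Slc2a6, Hk1, Hk3, Pfkp, Ldhb, Pdk2 and Pdk3. These are 30.3% and 21.2% of the members, where 15.2% and 13.7% of all tested genes lay below and above. The split was noticed in these same data, so it carries no test, and what sets these libraries apart is not given in the labels.

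Among the genes that were lower in numbers 5 and 6, Gpi1, Pfkl, Aldoc, Tpi1, Pgk1, Eno1 and Pkm encode enzymes of glycolysis. The vehicle mean of numbers 5 and 6 was 0.784 times that of numbers 1 to 4 for Pkm, 0.826 times for Pgk1, 0.785 times for Pdk1, 0.790 times for Bnip3 and 0.620 times for Aldoc. With HDM the same ratios were 0.771, 0.862, 0.806, 0.790 and 0.607. Slc2a6 and Vegfa went the other way, at 1.94 and 1.97 times with vehicle and 1.83 and 1.57 times with HDM. The 15 enzyme genes summed to 8545 to 8782 CPM in numbers 5 and 6 and to 9052 to 10253 CPM in the others. For Pkm the treatment means differed by -0.5%, less than the difference between these libraries. Macrophage markers summed to 17072 to 17593 CPM in numbers 5 and 6 and to 17804 to 21771 in the others, and their part in these differences was not tested.

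**Figure D3:**
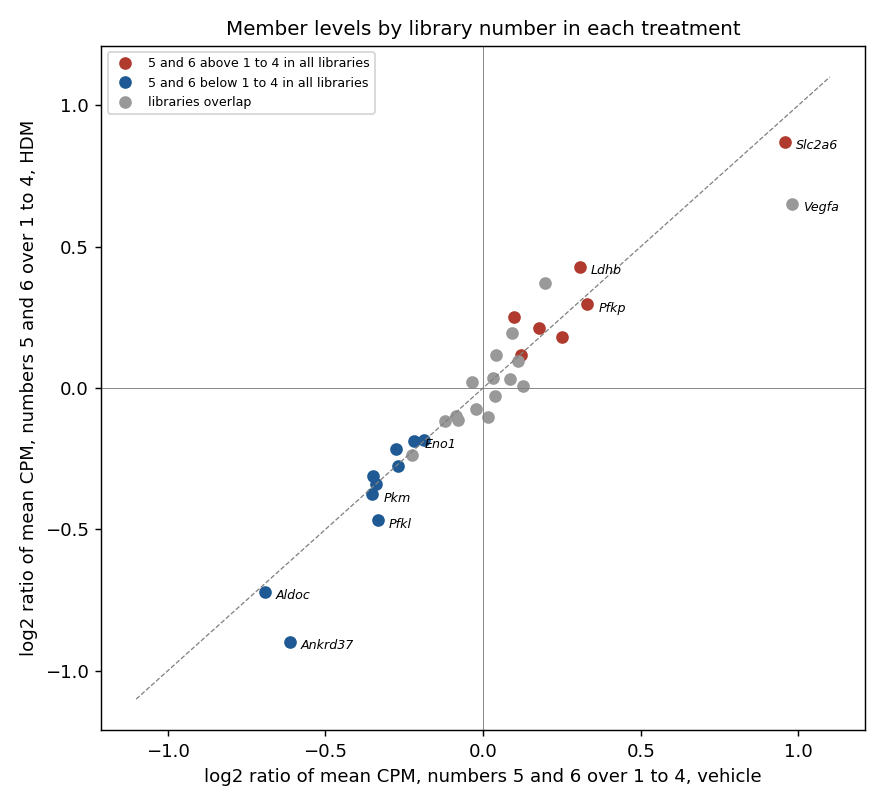
Each point is 1 of the 33 genes, placed by the log2 ratio of its mean CPM in libraries 5 and 6 over that in libraries 1 to 4, among vehicle libraries (horizontal) and among HDM libraries (vertical); the dashed line marks equal ratios. Red and blue genes had numbers 5 and 6 above or below all other libraries. Most points lie near the dashed line, with Ankrd37 and Aldoc at the low end and Slc2a6 and Vegfa at the high end. Vegfa (ratio 1.97 with vehicle, 1.57 with HDM) and Ankrd37 (0.654 and 0.537) lie below the line.

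Other genes around these pathways were read from lists made beside the members. Of 106 such genes 94 were tested, and 3 rose and 2 fell, or 3.2% and 2.1%. Over all tested genes 2.9% and 2.47% were called. With the block 9 rose and 8 fell, or 9.6% and 8.5%, against 7.9% and 6.81% of all tested genes. These shares lay near those of all tested genes, and the median log2 fold change of the 94 was 0.00. Of 17 tested further genes of glycolysis and carriers, 1 rose and 2 fell, and 1 and 4 with the block. The falls were those of Pdp1 and Pdp2, the phosphatases that undo the work of the pyruvate dehydrogenase kinases. Pdp1 averaged 40.3 ± 1.24 CPM in vehicle libraries and 26.3 ± 0.843 after HDM, or -0.61 ± 0.03 SE on the log2 scale (adjusted p = 9.72e-08). Pdp2 averaged 15.2 ± 1.21 and 11.5 ± 0.790 CPM (-0.41 ± 0.06, adjusted p = 0.0015). For both the groups did not overlap, so HDM was necessarily lower in 6 of 6 numbers. Tigar, whose product removes fructose 2,6-bisphosphate, rose (21.9 ± 1.29 CPM in vehicle libraries, 26.9 ± 1.45 after HDM, 0.30 ± 0.05, adjusted p = 0.00225). Eno3, the muscle enolase, was called lower only with the block (-0.24 ± 0.05, adjusted p = 0.00448).

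Among 11 tested further genes of the HIF pathway, none was called on treatment alone with edgeR, where 1 (Arnt) had an unadjusted p under 0.05. With the block 1 rose and 2 fell. Arnt, the partner of HIF1A, was at a log2 fold change of 0.09 ± 0.03 SE with the block (adjusted p = 0.0426), Hif1an, an asparagine hydroxylase that restrains HIF, at -0.10 ± 0.03 (0.0237) and Egln2, another hydroxylase, at -0.13 ± 0.04 (0.0419). Of 21 tested further hypoxia targets 1 rose, and 5 rose and 2 fell with the block. The 1 was Cited2, whose product competes with HIF for the coactivators CBP and p300. Its mean was 39.8 ± 7.04 CPM in vehicle libraries and 96.4 ± 15.2 after HDM. That change of 1.28 ± 0.12 SE on the log2 scale (adjusted p = 2.29e-05) was the largest among the members and these lists. With the block Ero1a (0.16 ± 0.03, adjusted p = 0.000484) and Ddit4 (0.39 ± 0.12, 0.0335) rose and Angptl4 fell (-0.53 ± 0.10, 0.00172).

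Of 26 tested genes of pyruvate entry and the TCA cycle 1 rose: Acod1, which makes itaconate from a cycle intermediate in activated macrophages, averaged 31.5 ± 2.84 CPM in vehicle libraries and 41.4 ± 3.76 after HDM (0.40 ± 0.07, adjusted p = 0.00363). The list's median was -0.01. None of 8 pentose phosphate genes was called on treatment alone (1 at an unadjusted p under 0.05), and with the block 1 rose, Rpia (0.23 ± 0.06, adjusted p = 0.00976). None of 11 glycogen genes was called in either fit, with 1 at an unadjusted p under 0.05 (Pygm, adjusted p = 0.29, and 0.228 with the block).

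**Figure D4:**
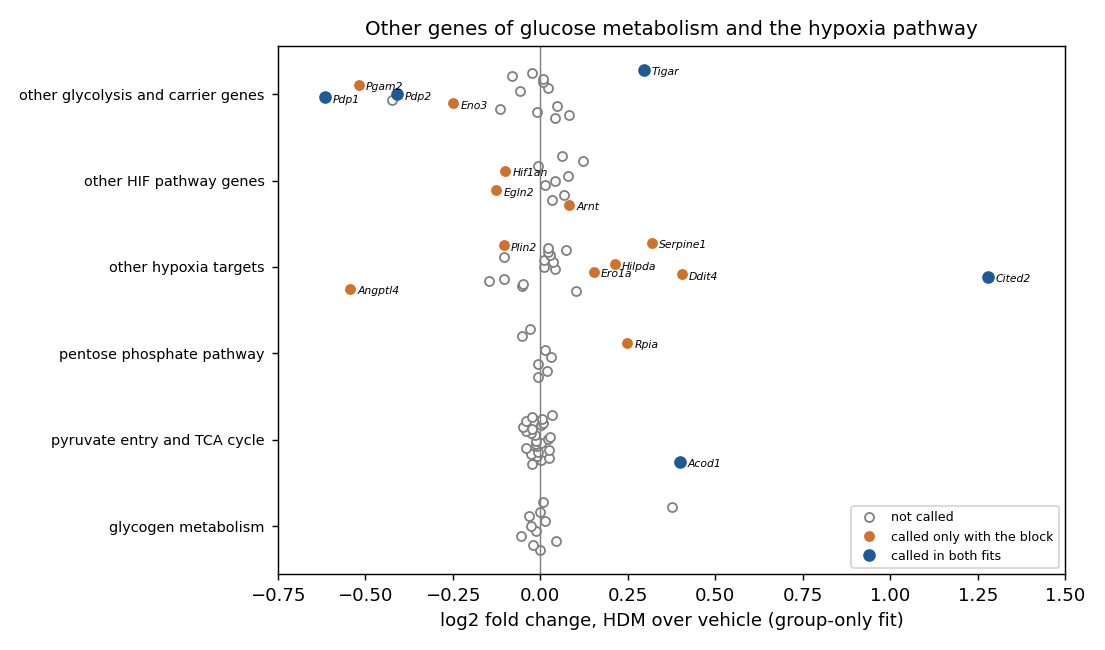
Log2 fold change with HDM (fit on treatment alone) of each tested gene in 6 further lists. Blue points were called in both fits, orange points only with the library number as a block, and open points in neither. Cited2 lies at 1.28 and Pdp1 at -0.61, while the genes of the TCA cycle other than Acod1 sit close to 0.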

How the data were processed

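Macrophage RNA was isolated on RNeasy columns, with DNase, and TruSeq Stranded mRNA libraries were made from it, per the labels' protocols. The authors deposited unscaled read counts, 1 row per gene and 1 column per library. The submitters' processing notes name STAR 2.6.0c, featureCounts 2.0.6 (with Subread), cutadapt 4.5 and Trim Galore 0.6.10 as well as FastQC 0.12.1, and both GRCm38 and mm39, without saying which was used for what. The annotation and strand setting were not given in these sources.

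Counts were tested with edgeR 4.0.16 (limma 3.58.1, R 4.3.3): quasi-likelihood F test, two-sided, TMM factors, filterByExpr at its defaults, treatment as the only term. Of 27925 genes with a read, 13530 were tested. The SE is the absolute log2 fold change over the square root of F, and 95% intervals use the test's degrees of freedom. CPM use TMM factors. The number was also fitted as a block: deviations from group means correlated at 0.367 to 0.672 between same-numbered libraries, which rests on the data, and 5 of 12 libraries matched their own number best. Alternatives included DESeq2 1.42.0 and limma-voom. Levels per kb use merged exons of GENCODE vM21 (GRCm38), an annotation that may differ from the counted one.

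The members, lists, library split and rule were chosen with earlier results of these data known. All members are accounted for, those called in either fit with their ranges. Of other lists, up to 4 genes with the smallest p among those called in either fit are named. Pygm and the 2 collagen genes were named after their values were seen.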

Additional observations from a re-analysis of the deposited data

Results flagged for a closer look

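In 3 of 66 groups of 6 libraries (33 members, 2 treatments) 1 library lay far from the other 5. Chance alone gives this in about 5% of groups. The HDM library numbered 6 had 27.9 CPM of Slc16a1, against 26.8 to 27.1 in the other 5, and without it Slc16a1 was still lower with HDM. The vehicle library numbered 2 had 1775 CPM of Gapdh, against 1516 to 1585. The HDM library numbered 4 had 56.8 CPM of Egln1, against 59.9 to 61.2. Neither Gapdh nor Egln1 was called with or without that library.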

How the results depend on the processing

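Hk2, Slc16a1, Pfkfb3 and Vhl kept their direction and their call under every alternative run, except Slc16a1 in numbers 5 and 6 alone. Of the 33 members, the number called higher was 1 on treatment alone, 2 with DESeq2's own test, 3 in numbers 5 and 6 alone, 3 in numbers 1 to 4 alone and 5 in numbers 1 to 4 with the replicate block. Leaving out 1 library gave 1 to 2, the 2 without vehicle 2, when Slc2a1 passed (adjusted p = 0.0240). With the replicate block the count was 5, also 5 without any single number. The number called lower was 2 to 3. Further pathway genes called higher were 3, then 9 with the replicate block (7 to 9 without a number), 7 in numbers 5 and 6, 6 in numbers 1 to 4 and 8 there with the block. Those called lower were 2, then 8 with the block (5 to 8 without a number), 4 in numbers 5 and 6 and 6 in numbers 1 to 4 with the block. Over all genes the calls were 393 higher and 334 lower. With the block they were 1069 and 921 (978, 913, 976, 966, 1017 and 1018 higher without numbers 1 to 6 in turn, and 666, 787, 746, 721, 782 and 768 lower). Numbers 1 to 4 gave 683 higher, and with the block 1083 and 658, and numbers 5 and 6 gave 567 lower. The causes of these differences in count were not tested, though fewer libraries entered some fits. Both fits with numbers left out and the block within numbers 1 to 4 were chosen after seeing the data. The median log2 fold change of the members was 0.01, and fell below 0 when scaled by total counts or the upper quartile (-0.01 in both) and without HDM 1 or vehicle 3. Of the 29 members not called on treatment alone, 21 changed sign under at least 1 alternative without being called, so no direction is drawn for them. Counting error weighs most on the low members Ankrd37, Egln3 and Ldhb, whose means were 2.58 to 5.44 CPM with vehicle.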
